A study of Mus musculus with 17 samples.

Results

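Kinesins are motor proteins that walk along microtubules, and the expression of their genes was measured in single mouse 2-cell embryos. The family was taken as every probe set (row) of the array that carried exactly 1 gene symbol and whose symbol was Kif followed by a number, with or without a letter, or Kifc1, Kifc2 or Kifc3. This gave 44 rows for 39 genes, out of 21780 rows with 1 symbol and 28815 rows in all. Under a strict reading that asks for a letter after the number, 28 of the 44 rows would remain. Kifc1 shared its only row with another symbol and is therefore no member. The genes were divided by their main known role into 13 spindle and cell division kinesins (14 rows), 15 kinesins that transport cargo (16 rows) and 11 kinesins of the cilium, of signalling or of other function (14 rows).

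Each of the 17 samples was 1 embryo, the product of natural mating of an untreated wild-type female with a wild-type male of strain 129SVE. The males had been injected daily for 6 weeks with PJ34, an inhibitor of poly(ADP-ribose) polymerases, or with saline. The control group held 7 embryos of the saline sires A (1 embryo), B (3 embryos) and D (3 embryos), and the PJ34 group held 10 embryos of the sires MTM11 (4 embryos), MTM13 (4 embryos) and MTM14 (2 embryos). One label field calls the control sires untreated, while the design text and the treatment protocol give saline. Only the sires were treated, and embryos with the same father cannot be taken as wholly separate. The study addressed whether altered poly(ADP-ribose) metabolism in the father changes gene expression in the early embryo.

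A kinesin turns the energy of ATP into steps along a microtubule, and most members walk towards the plus end. Spindle kinesins slide, shorten or bundle microtubules so that chromosomes line up, separate and the cell is cut apart, while transport kinesins carry vesicles, organelles, RNA and receptors, often through light chains or adaptors. The mouse embryo cleaves without growth, from spindles that lack centrioles, and relies at first on maternal stores, while the cilium for which several family members are known does not form until much later. Cargo transport kinesins such as Kif1a and Kif5a are best known from neurons.

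Promoter sequences are given for genes that the results turn on, Kif1c and Kif3a, and for a pair of spindle kinesins, Kif22 and Kif23, that carry motifs known from cell cycle promoters. They come from RefSeq on build GRCm38.p6, run from 250 bases before to 50 bases after the annotated start, and are written 5′ to 3′ on the gene's own strand. Kif1c lies at chr11:70700298-70700597 (+), Kif3a at chr11:53567119-53567418 (+), Kif22 at chr7:127042371-127042670 (-) and Kif23 at chr9:61946750-61947049 (-). Capitals mark TTTGAA, the core of the cell cycle homology region, or TTCAAA, the same element on the other strand, and CCAAT or its reverse complement ATTGG.
Kif1c: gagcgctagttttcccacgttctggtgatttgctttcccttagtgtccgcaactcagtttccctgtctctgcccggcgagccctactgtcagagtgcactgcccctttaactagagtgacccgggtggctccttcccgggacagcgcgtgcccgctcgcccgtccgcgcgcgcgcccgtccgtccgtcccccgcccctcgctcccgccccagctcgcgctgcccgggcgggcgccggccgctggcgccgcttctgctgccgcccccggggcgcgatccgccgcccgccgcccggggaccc
Kif3a: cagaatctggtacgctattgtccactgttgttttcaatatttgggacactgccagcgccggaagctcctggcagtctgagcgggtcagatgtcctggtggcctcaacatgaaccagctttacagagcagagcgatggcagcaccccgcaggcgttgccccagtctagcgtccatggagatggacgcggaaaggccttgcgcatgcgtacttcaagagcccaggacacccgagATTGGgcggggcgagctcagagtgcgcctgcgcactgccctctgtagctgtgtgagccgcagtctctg
Kif22: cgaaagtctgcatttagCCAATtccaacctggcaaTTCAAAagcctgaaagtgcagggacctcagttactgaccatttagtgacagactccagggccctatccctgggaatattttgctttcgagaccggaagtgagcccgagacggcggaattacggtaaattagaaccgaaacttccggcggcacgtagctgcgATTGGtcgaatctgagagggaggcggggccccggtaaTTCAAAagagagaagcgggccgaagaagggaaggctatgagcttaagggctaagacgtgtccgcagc
Kif23: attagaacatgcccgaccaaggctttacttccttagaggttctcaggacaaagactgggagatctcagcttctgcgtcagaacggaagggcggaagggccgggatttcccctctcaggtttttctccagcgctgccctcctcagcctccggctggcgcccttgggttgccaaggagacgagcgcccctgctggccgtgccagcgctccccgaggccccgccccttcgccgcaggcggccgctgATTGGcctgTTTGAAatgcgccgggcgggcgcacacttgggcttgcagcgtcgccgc

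Of the 39 kinesin genes, 31 had at least 1 promoter window in the RefSeq table, 35 windows in all. TTTGAA was present on either strand in 9 of 13 windows of spindle kinesins (69.2%), in 1 of 12 windows of transport kinesins (8.33%), in 2 of 10 of the others (20.0%) and in 17.9% of all 32851 windows of the same length. CCAAT was present on either strand in 7 of 13, 4 of 12 and 4 of 10 windows, against 37.4% of all windows. Both motifs stood together in 6 of 13 spindle windows (46.2%), in 0 of 12 transport windows and in 6.95% of all windows. The 6 spindle genes with both were Kif4, Kif11, Kif14, Kif18b, Kif22 and Kif23. The median share of G and C was 60.7% in spindle, 68.2% in transport and 60.2% in other windows, against 52.7% in all windows. The motif shares were not adjusted for this base composition. In Kif22 the TTCAAA copies began 215 and 17 bases before the start, and in Kif23 TTTGAA began at base 3 after it. The window of Kif1c held neither motif and was 73.3% G and C, and that of Kif3a held 1 ATTGG that began 18 bases before the start. The motifs share at most a base at their ends, were chosen as those known of late cell cycle genes, and are a description of letters, not of binding.

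Values were log2 RMA intensities with array medians from 6.12 to 6.23. All 6 found markers of the 2-cell stage, of 10 listed, and all 7 oocyte markers lay above the 75th percentile of all rows. The listed Zscan4c, Zscan4d, Zscan4f and Tcstv1 had no row with 1 symbol. All 7 found cumulus cell markers and 5 of 6 spermatid markers lay below the median row. Of 3 found markers of oviduct and blood 0 lay above that percentile and 2 below the median. Of 5 neuron markers 1 lay above that percentile and 3 below the median. The summed level of the cumulus list, given as its mean, ranged from 5.20 to 5.36 in control and from 5.09 to 5.42 in PJ34 embryos. The mean over the 2-cell markers ranged from 10.4 to 10.7 in control and from 9.50 to 10.7 in PJ34 embryos. A value of a whole embryo does not tell less RNA in both cells from a loss in 1 of them. Probe sets bind with different strength, so an intensity ranks embryos for 1 row but does not rank genes.

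With that limit, 11 of the 14 spindle rows had a mean over the 17 embryos above the 75th percentile of all rows, against 4 of 16 transport rows (Kif3b, Kif5b, Kif5c and Kif16b) and 0 of the 14 others. The spindle rows outside that range were Kif2b, a depolymerase known from testis, Kif15, and the dimmer of 2 Kif14 rows. Row means ran from 3.84 to 11.34 among spindle kinesins, from 5.39 to 10.88 among transport kinesins and from 4.86 to 6.97 among the others. The brightest spindle row was Kif2a, a microtubule depolymerase of spindle poles, at 11.38 ± 0.11 in control (SD, n = 7) and 11.31 ± 0.09 in PJ34 embryos (SD, n = 10). The brightest transport row was Kif5b, the ubiquitous heavy chain of conventional kinesin, at 10.90 ± 0.25 and 10.87 ± 0.15. The groups overlapped in both rows.

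No kinesin row was called in the comparison of the 10 PJ34 with the 7 control embryos, at a Benjamini-Hochberg adjusted p under 0.1 in limma, the threshold of the study. The share called over all 21780 rows was 0% as well, with a lowest adjusted p of 0.112 over all rows and 0.814 among kinesins. At an unadjusted p under 0.05, 5 kinesin rows stood out: 2 higher in PJ34 embryos, both of Kif1c, where the share of all rows was 1.96%, and 3 lower, Kif20a, Kif22 and 1 Kif14 row, where it was 3.93%. In either direction the share of all rows was 5.89%. The 5 rows became 3 when control A-2 or the PJ34 embryo MTM11-1, MTM11-4, MTM13-1 or MTM14-2 was left out, and the Kif1c rows and Kif20a were among them each time. The sign of the difference was negative in 28 of 44 kinesin rows (63.6%), against 56.4% of all rows. The median difference was -0.04 over the kinesins, -0.07 over the spindle, -0.04 over the transport and -0.02 over the other rows, against -0.02 over all rows, on the log2 scale.

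**Figure D1:**
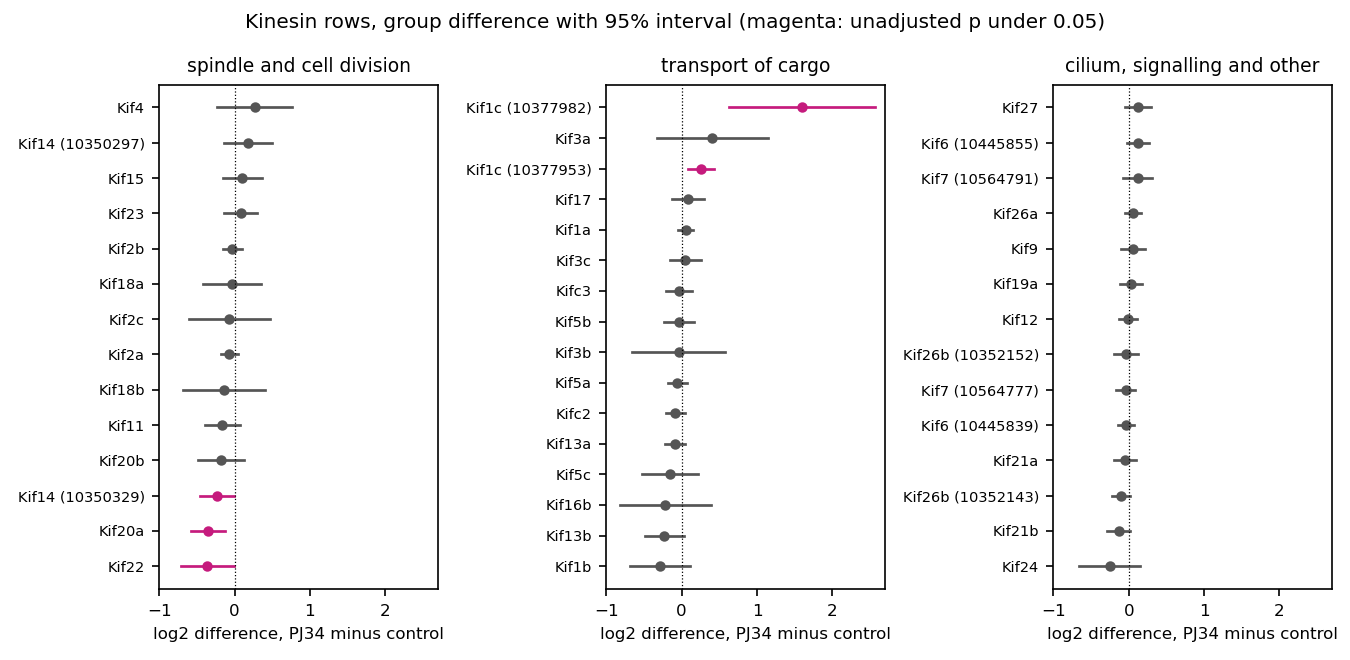
The difference PJ34 minus control of each of the 44 kinesin rows (points, log2 RMA units on the x axis) with its 95% interval from limma (lines), in 3 panels by role. Rows with an unadjusted p under 0.05 are drawn in magenta, 2 of Kif1c to the right of 0 and 3 of spindle kinesins to the left, and the interval of the Kif1c row 10377982, from 0.63 to 2.56, reaches farthest to the right.

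Kif1c, a vesicle motor that also carries RNA to cell protrusions, had the largest group difference of the family and is read by 2 rows. In the first row (10377982) the control embryos measured 5.14 (A-2), 4.95, 5.44 and 5.22 (B-1 to B-3) and 5.89, 5.67 and 6.17 (D-1 to D-3). The PJ34 embryos measured 6.13, 5.57, 8.10 and 8.95 (MTM11-1 to MTM11-4), 7.84, 8.53, 6.53 and 5.52 (MTM13-1 to MTM13-4) and 7.09 and 6.68 (MTM14-1 and MTM14-2). All 10 PJ34 embryos lay above the control mean and 7 lay above every control, but MTM11-1, MTM11-2 and MTM13-4 lay within the control range. The means were 5.50 ± 0.44 (SD, n = 7) and 7.09 ± 1.22 (SD, n = 10), a difference of 1.60 with a standard error of 0.46 (95% interval 0.63 to 2.56), or 3.02-fold in intensity. The values carry no detection call, and the control mean of this row, like that of Kif3a, lay below the median row mean of 6.25, so whether it exceeds array background is not known here and folds over it are those of the deposited intensities. It ranked 71st by p of all rows and did not pass, with a limma p of 0.00287 and an adjusted p of 0.814. When 1 embryo was left out, the difference ran from 1.39 without MTM11-4 to 1.77 without MTM13-4. Over all 30 alternatives it ran from 1.37 to 1.90.

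The second Kif1c row (10377953) ran from 6.41 to 6.76 with a median of 6.49 in control embryos and from 6.46 to 7.04 with a median of 6.76 in PJ34 embryos. Here 9 of 10 PJ34 embryos lay above the control mean and 5 above every control, MTM13-4 being again the lowest of its group. The difference was 0.26 (95% interval 0.09 to 0.43), or 1.19-fold, with a limma p of 0.00563 and an adjusted p of 0.814. It ran from 0.23 to 0.30 over 30 alternatives, and in all of them both Kif1c rows kept an unadjusted p under 0.05. In 1 of the 30, only rows above the median row mean over all 17 embryos were kept. The first row (10377982) entered that fit only through its high PJ34 embryos, since its control mean of 5.50 lay below the median of 6.25. That fit therefore adds no support for the first row. By sire, the first row averaged 7.19 in MTM11, 7.10 in MTM13 and 6.89 in MTM14 embryos, a difference from control of 1.69, 1.61 and 1.39. These 3 PJ34 sires lay closer together than the embryos of 1 sire did, and the F test over the 3 PJ34 families gave p = 0.94 in limma. That fit pooled the control sires. In the first row the control embryos of sire D (5.67 to 6.17) lay above those of A and B (4.95 to 5.44).

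**Figure D2:**
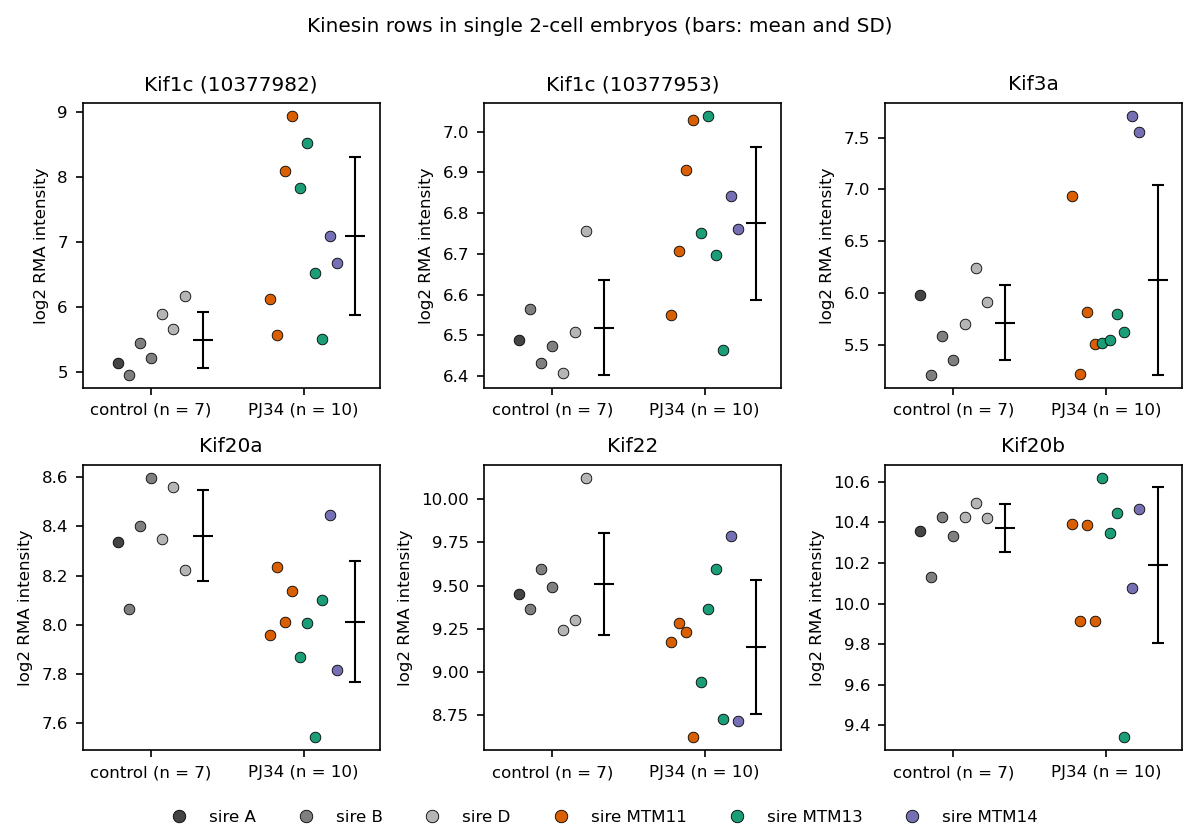
Log2 RMA intensity (y axis, a separate scale in each panel) of 6 kinesin rows in the 7 control and 10 PJ34 embryos, 1 point per embryo coloured by sire, with mean and SD as bars. In the Kif1c row 10377982 the PJ34 embryos spread from 5.52 to 8.95, and in Kif3a both MTM14 embryos (7.71 and 7.55) lie above all others.

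Among spindle kinesins, Kif20a showed the smallest p. Kif20a brings the Aurora B kinase complex to the central spindle when the cell divides. Control embryos ran from 8.07 to 8.60 with a median of 8.35, and PJ34 embryos from 7.54 to 8.45 with a median of 8.01. The groups overlapped, with 9 of 10 PJ34 embryos below the control mean and 6 below every control. The means of 8.36 ± 0.18 (SD, n = 7) and 8.01 ± 0.25 (SD, n = 10) differed by -0.35 (95% interval -0.58 to -0.12), that is 1.27-fold lower in PJ34 embryos, with a limma p of 0.00488 and an adjusted p of 0.814. The difference held between -0.40 and -0.26 over 30 alternatives.

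Kif22, a chromokinesin that pushes chromosome arms away from the poles, ran from 9.24 to 10.12 (median 9.45) in control and from 8.62 to 9.78 (median 9.20) in PJ34 embryos. Its mean was lower by 0.36 in PJ34 embryos, 8 of which lay below the control mean, with a limma p of 0.0435 and an adjusted p of 0.843. The highest control, D-3 at 10.12, stood apart from the other 6, and without it the difference was -0.26. The dim Kif14 row (10350329), at 3.97 ± 0.33 and 3.74 ± 0.12, differed by -0.24 (limma p = 0.0456, adjusted p = 0.843), of which -0.11 was left without control D-2 at 4.71. The bright Kif14 row (10350297) differed by 0.18 in the other direction, at 10.75 ± 0.32 and 10.93 ± 0.31, with adjusted p = 0.911, and by 0.09 without control B-2. Kif14 acts in cytokinesis with the bundling protein Prc1, and its rows gave no common direction.

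The other 10 spindle rows differed by -0.18 to 0.27, and in each the groups overlapped. Kif11, the motor that pushes spindle poles apart, measured 9.86 ± 0.15 in control and 9.69 ± 0.27 in PJ34 embryos, a difference of -0.17. Kif4, a chromokinesin that sets the length of central spindle microtubules, had the largest positive spindle difference at 0.27, and it was 0.07 without control B-2, whose 9.01 lay below the next control at 10.09. Kif15, which can stand in for Kif11, differed by 0.10, or by 0.23 without control D-1 at 6.19, by 0.04 without control D-2 and by 0.06 without control B-2. Kif20b, a motor of late cytokinesis, differed by -0.18, or by -0.09 without MTM13-4 at 9.34. The microtubule-shortening kinesins Kif2a, Kif2b and Kif2c differed by -0.07, -0.03 and -0.07. Kif18a, Kif18b and Kif23, which restrain chromosome movement, shorten astral microtubules and bundle the midzone, differed by -0.04, -0.14 and 0.08.

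Of the 16 transport rows, 14 belonged to genes other than Kif1c. Where 5.89% of all rows reached an unadjusted p of 0.05 between the groups, none of these 14 did. Their differences ran from -0.29 for Kif1b, a motor of mitochondria and synaptic vesicle precursors, to 0.41 for Kif3a, whose difference was 0.23 without MTM14-1, 0.25 without MTM14-2 and 0.03 without both. Kif1b measured 8.62 in control A-2, where the other controls ran from 6.96 to 7.54, and its difference was -0.10 without that embryo. Kif13b, a motor of endosomal and plasma membrane cargo, was likewise highest in control A-2 at 6.93, and its -0.23 became -0.11 without it. Kif16b, which moves early endosomes, differed by -0.22, but its sign was positive without sire D (0.031) and without sire MTM11 (0.074). The conventional kinesin heavy chains Kif5a, Kif5b and Kif5c differed by -0.06, -0.04 and -0.16. The difference of Kif5b was 0.045 without control D-1 at 11.41. The remaining transport rows, Kif1a, Kif3b, Kif3c, Kif13a, Kif17, Kifc2 and Kifc3, differed by -0.09 to 0.09. The 2 Kif1c rows were the only kinesin rows higher at an unadjusted p under 0.05. Without them 0 higher and 3 lower rows remain by construction, where the shares of all rows were 1.96% and 3.93%.

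The 14 rows of cilium, signalling and other kinesins differed by -0.25 to 0.12. Kif24, which restrains cilium formation at the centriole, had the most negative mean difference, and it was -0.11 without control D-1 at 7.25. Kif21b, which limits microtubule growth, was below the control mean in 10 of 10 PJ34 embryos, yet only 1 lay below every control, and the difference was -0.14 with a limma p of 0.0722. It was -0.08 without control D-2 and -0.17 without control D-1 (limma p = 0.0235, adjusted p = 0.790), and with sire means it was -0.14 (p = 0.0473, adjusted p = 0.987). Kif27 and 1 row of Kif7, relatives that act in Hedgehog signalling or in cilia, each differed by 0.12. Without control D-3 the difference of Kif27 was 0.19 (limma p = 0.00987, adjusted p = 0.894), and without MTM13-3 that of the Kif7 row was 0.06. Kif6, a protein of motile cilia, and Kif26b, an atypical kinesin, were read by 2 rows each, Kif6 at 0.12 (10445855) and -0.04 (10445839) and Kif26b at -0.10 (10352143) and -0.04 (10352152). Kif9, Kif12, Kif19a, Kif21a, Kif26a and the other Kif7 row differed by -0.05 to 0.06.

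Kif3a stood apart by sire. It forms with Kif3b and the adaptor Kifap3 the kinesin that carries cargo out along the cilium, and pairs with Kif3c in neurons. Control embryos ran from 5.21 to 6.24 with a median of 5.70, the MTM13 embryos measured 5.52, 5.54, 5.80 and 5.62, and the MTM11 embryos measured 6.94, 5.21, 5.82 and 5.51. The MTM14 embryos measured 7.71 and 7.55, above every other embryo, with MTM11-1 next.

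The MTM14 mean of 7.63 (n = 2) was 1.92 above the control mean of 5.71 (95% interval 1.20 to 2.64), or 3.78-fold in intensity. It was the single kinesin row called in a family, with a limma p of 4.38e-05 and an adjusted p of 0.0803, where 0.0413% of all rows were called higher and 0.0138% lower in MTM14. Kif3a had been singled out with these values known, so the call is a description and not independent evidence. The call was kept when control D-2, MTM11-1 or MTM11-2 was left out and was lost when any other of the 17 embryos was, with adjusted p values from 0.00783 to 0.236 over 20 alternatives, while the difference stayed between 1.83 and 2.01. With array medians subtracted the adjusted p was 0.106. The residual spread of this row included MTM11-1.

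The difference of Kif3a from control was 0.16 in MTM11 and -0.09 in MTM13. Over the 3 PJ34 families the limma F test gave p = 0.000169, the 14th smallest of all rows, and an adjusted p of 0.238, which did not pass. No kinesin row passed that test, where 0.0138% of all rows did. Of 20 alternatives Kif3a passed that test in 1, without MTM11-1, where the adjusted p was 0.00998. The next smallest adjusted p was 0.218, without control B-1. Of the partners, Kif3b differed from control by -0.15 in MTM14 and Kif3c by -0.03, so that the high values in MTM14 were not seen in these rows. Kif3c was the other row with an unadjusted p under 0.05 between the families (2 of 44 rows, against 4.91% of all rows), with means of 7.20 in MTM11, 7.55 in MTM13 and 7.28 in MTM14.

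In MTM11 and MTM13 0 kinesin rows were called, with lowest adjusted p values of 0.865 and 0.954 in limma. Over all rows 0.00459% were called higher and 0% lower in MTM11, and 0% in MTM13. At an unadjusted p under 0.05, MTM11 had 3 rows higher, both of Kif1c and Kif6 (10445855), and 0 lower, where the shares of all rows were 2.72% and 2.53%. MTM13 had 3 rows higher, Kif1c (10377982), Kif3c and Kif17, and 1 lower, Kif20a by -0.48, where the shares were 2.06% and 2.9%. MTM14 had Kif3a higher, and Kif24 and Kif26b (10352143) lower by 0.68 and 0.20, where the shares were 2.53% and 3%. The 3 comparisons share the 7 control embryos.

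Each PJ34 embryo was also set against the 7 controls, with the spread of the controls taken for the lone embryo. These comparisons share the same 7 controls and are not separate from each other. Of 440 such tests on kinesin rows 6 were called (1.36%), 5 higher and 1 lower, where the shares over all rows were 0.48% and 0.101%. Kif1c (10377982) was called in MTM11-3, MTM11-4, MTM13-1 and MTM13-2, at 2.60, 3.45, 2.34 and 3.03 above the control mean, with limma adjusted p values of 0.0605, 0.0216, 0.0695 and 0.0381. Kif3a was called in MTM14-1 at 2.00 above (adjusted p = 0.0857), while MTM14-2 at 1.84 and MTM11-1 at 1.22 did not pass (0.170 and 0.363). Kif20b was called in MTM13-4, which measured 9.34 against a control mean of 10.37, or 2.04-fold lower (adjusted p = 0.0257).

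These calls depended on the spread used and on single controls, settings for which no share over all rows was computed. They numbered 3 without control B-2 or B-3, and those 3 were Kif1c in MTM11-4 and MTM13-2 and Kif20b in MTM13-4, which were called whichever control was left out. When the spread was taken from the controls and the other PJ34 embryos, Kif20b in MTM13-4 was called again, with Kif7 (10564791) in MTM13-3, and no call of Kif1c or Kif3a was made. The same test of every control against the remaining 6 gave 2 calls in 308 tests (0.649%), where 0.357% of all rows were called higher and 0.04% lower. They were Kif13b in A-2, 0.83 above the others (adjusted p = 0.0752), and Kif14 (10350329) in D-2, 0.86 above (adjusted p = 0.0413). Of all rows, 0.289% to 0.918% were called per PJ34 embryo and 0.289% to 0.487% per control embryo.

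**Figure D3:**
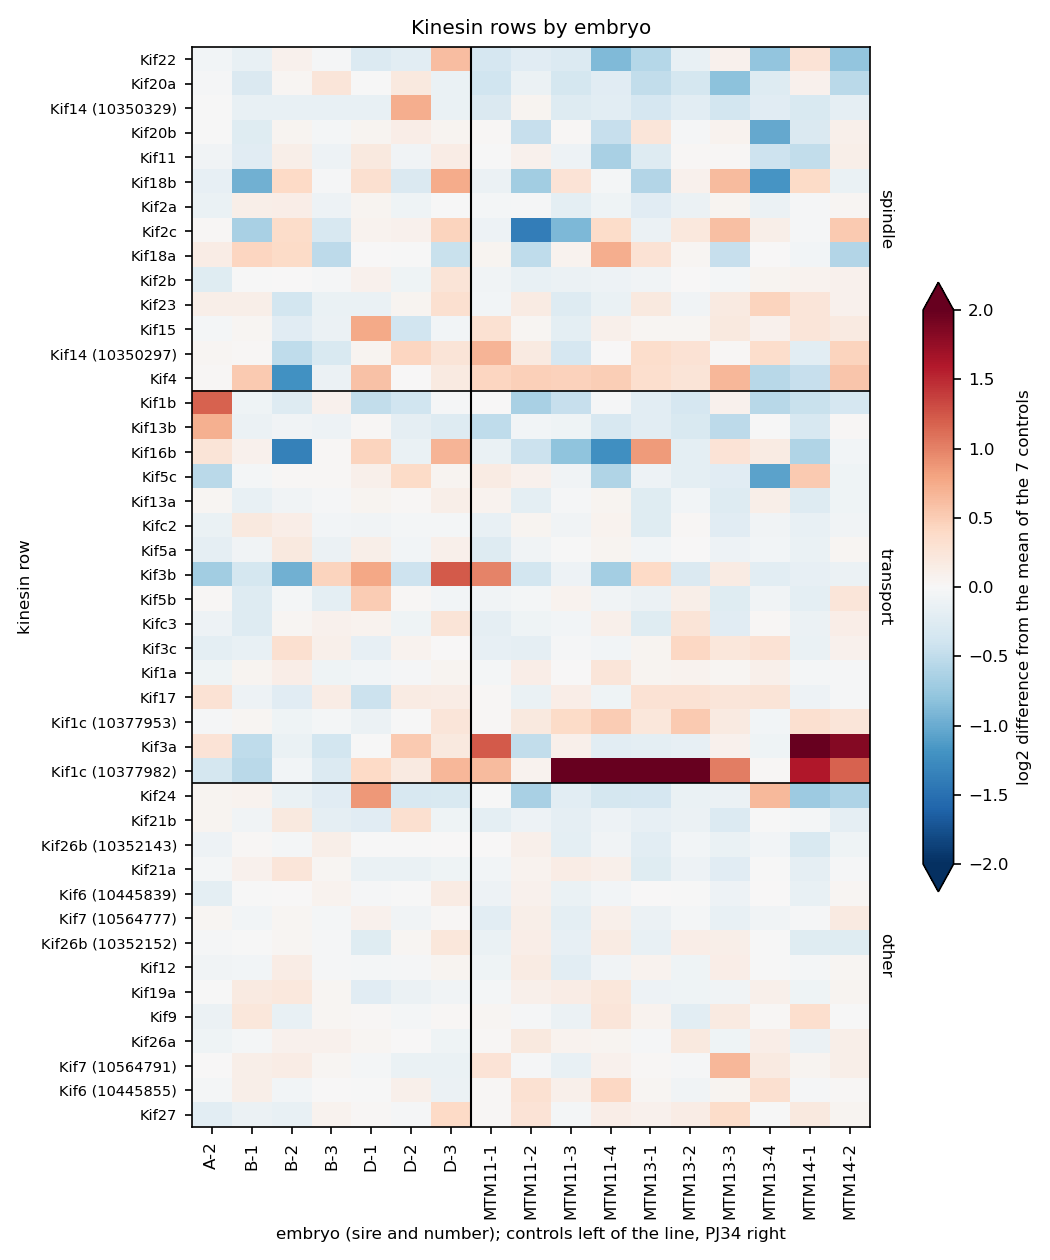
Log2 difference of each embryo (columns, controls left of the line) from the mean of the 7 controls for the 44 kinesin rows, sorted within role by group difference. Red is higher and blue lower, with colours saturated beyond 2 units; the darkest cells are Kif1c in MTM11-3, MTM11-4, MTM13-1 and MTM13-2 and Kif3a in MTM14-1 and MTM14-2, while other rows show single embryos in either group.

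Taken over the spindle rows, the mean deviation of an embryo from the control mean ran from -0.12 (B-3) to 0.16 (D-3) among controls and from -0.25 (MTM13-4) to 0.06 (MTM13-3) among PJ34 embryos. MTM13-4 was the lowest of the 17 embryos in Kif20b and Kif18b, and its mean deviation over all rows was 0.01. Over the transport rows other than Kif1c and Kif3a, controls ran from -0.16 (B-2) to 0.17 (D-3) and PJ34 embryos from -0.20 (MTM11-4) to 0.02 (MTM13-1). The groups overlapped in both scores.

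The standard deviation was larger among PJ34 than control embryos in 22 of 44 kinesin rows, against 53.6% of all rows. It was over 2 times larger in 6 rows, against 10.7% of all rows: Kif20b (3.23 times), Kif1c 10377982 (2.79), Kif3a (2.52), both Kif7 rows (2.27 and 2.03) and Kif6 10445855 (2.01). It was over 2 times larger among controls in 4 rows, Kif14 10350329, Kif15, Kif21b and Kif1b, against 6.45% of all rows. The highest control in these 4 rows was D-2 for Kif14 and Kif21b, D-1 for Kif15 and A-2 for Kif1b.

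For the 5 genes with 2 rows, both rows were compared over the 17 embryos. The 2 rows of Kif1c followed each other, with Pearson's r = 0.888 and Spearman's rho = 0.806. The permutation tests gave p = 2e-05, the smallest that the 100000 resamples can give, and p = 0.00014, or 1e-04 and 0.0007 adjusted over the 5 pairs. Without the 2 embryos farthest from the median of the second row, r was 0.794. Within groups r was 0.891 in the 10 PJ34 and 0.378 in the 7 control embryos. The first row varied over a wider range than the second, from 4.95 to 8.95 against 6.41 to 7.04.

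The rows of the other 4 genes did not pass such a test. Pearson's r was 0.43 for Kif26b, 0.19 for Kif14, 0.02 for Kif6 and -0.26 for Kif7, with permutation p adjusted over the 5 pairs of 0.205, 0.607, 0.934 and 0.532 (n = 17). Spearman's rho was 0.37, 0.02, -0.02 and -0.15, with adjusted p of 0.368, 0.932, 0.932 and 0.930. The sources used here do not give which exons the probes of each row read.

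**Figure D4:**
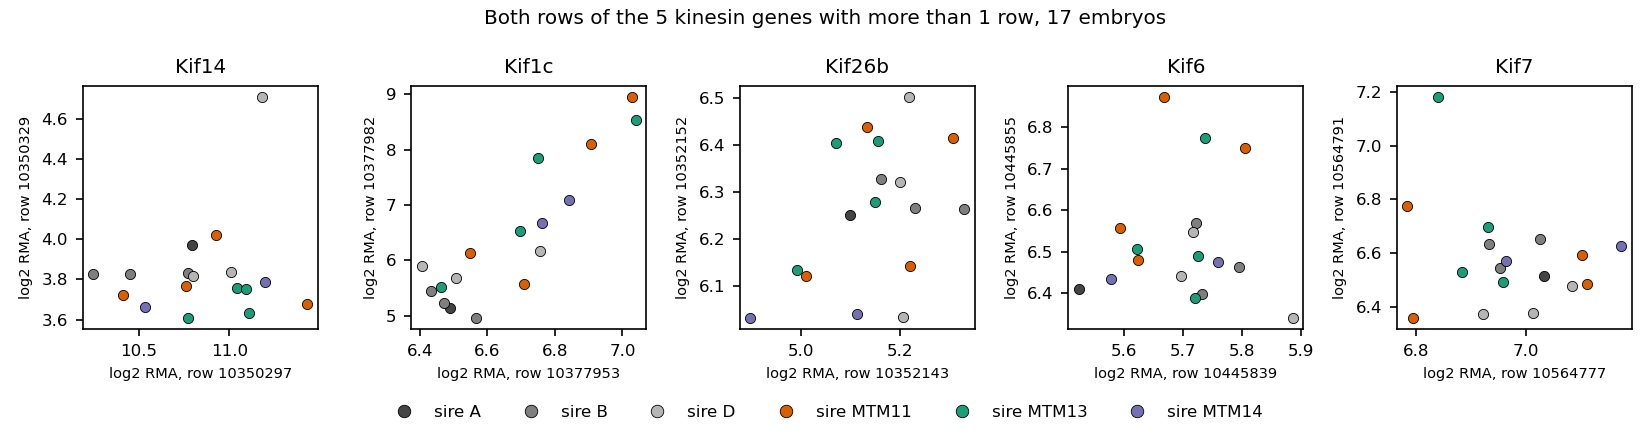
The 2 rows of each of 5 kinesin genes plotted against each other in log2 RMA intensity, 1 point per embryo (17 embryos) coloured by sire. The Kif1c points rise together (r = 0.888), while those of Kif14, Kif26b, Kif6 and Kif7 scatter (r from -0.26 to 0.43).

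Genes that work with kinesins showed 0 calls in every list, where the share called over all rows was 0% as well. Some listed genes, among them Tuba1b, Klc2 and Rhot2, had no row with 1 symbol and are not covered. Cenpe, a kinesin of the kinetochore under another name, measured 10.83 ± 0.13 in control and 10.65 ± 0.20 in PJ34 embryos, with 10 of 10 PJ34 embryos below the control mean (limma p = 0.0458, adjusted p = 0.843). The 3 rows of Stard9, a further kinesin, differed by -0.05 to 0.06. Of 11 rows of light chains and adaptors none reached an unadjusted p of 0.05, against 5.89% of all rows. Kifap3, the adaptor of Kif3a and Kif3b, differed by -0.08.

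Of 24 spindle partners, 22 lay above the 75th percentile of all rows. Nuf2, a part of the Ndc80 complex that holds microtubules at kinetochores, was higher in 9 of 10 PJ34 embryos than the control mean, by 0.78 on average (limma p = 0.00299, adjusted p = 0.814). Racgap1, which forms centralspindlin with Kif23, differed by -0.45 (p = 0.0433, adjusted p = 0.843 in limma), while Kif23 differed by 0.08. Prc1, which recruits Kif4 and Kif14 to the midzone, differed by -0.01 (adjusted p = 0.992). Of 19 rows of dynein and dynactin, the minus-end motor and its activator, Dctn4 differed by -0.60 (limma p = 0.00359, adjusted p = 0.814) and Dync1h1, the heavy chain, by 0.03. None of 16 tubulin rows and none of 16 rows of intraflagellar transport genes reached an unadjusted p of 0.05, against 5.89% of all rows. The median difference was 0.06 over the tubulins and -0.06 over the intraflagellar transport genes, against -0.02 over all rows.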

How the data were processed

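RNA of single 2-cell embryos was amplified and hybridised to Affymetrix Mouse Gene ST arrays. The authors deposited log2 intensity values, normalised together by RMA in Partek software, per the labels and methods. The version of the software and the build behind the probe sets were not found in these sources, and no further normalisation was applied. For arrays precision depends on the number of embryos, and the standard error of the group difference had a median of 0.09 over rows.

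Rows were named from the platform annotation, and all 39 kinesin symbols matched the RefSeq gene table. Groups and sires came from the labels. Differences were fitted over all 21780 rows with 1 symbol in limma 3.58.1 (R 4.3.3), two-sided, with Benjamini-Hochberg adjustment over all rows. Scripts were tested on simulated data. Comparisons were PJ34 against control, each PJ34 family against control, an F test between families, and each embryo against the controls. Correlations used permutation tests in scipy 1.17.1, and figures matplotlib 3.10.9. Embryos were treated as independent, with the sire as a block and sire means as alternatives. Other alternatives were subtraction of array medians, all rows, rows above the median mean, a plain analysis of variance, another variance prior, and leaving out each embryo or sire. Named with values were the 6 smallest p in each direction, Kif3a, genes with more than 1 row, called rows and rows with an embryo apart from its group; the other members are given more briefly. Members, roles and lists were chosen with earlier results of these data known.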

Additional observations from a re-analysis of the deposited data

Results flagged for a closer look

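In 12 of 88 tests, each of 1 kinesin row in 1 group, an embryo stood apart from the rest of its group by the gap to its neighbour (Dixon's test). Chance flags about 1 in 20 groups, and over all rows of this table the share was 11.8%, so that the 13.6% among kinesins was near the background. The share was 20.5% in control embryos, against 10.5% of all rows, and 6.82% in PJ34 embryos, against 13.2%.

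Among controls, A-2 was high for Kif13b (6.93, next 6.24) and Kif1b (8.62, next 7.54). Control D-1 was high for Kif5b (11.41, next 10.93), Kif24 (7.25, next 6.45) and Kif15 (6.19, next 5.48). Control D-2 was high for the dim Kif14 row 10350329 (4.71, next 3.97), and D-3 was high for Kif22 (10.12, next 9.60). Control B-2 was low for Kif16b (7.38, next 8.59) and Kif4 (9.01, next 10.09). Among PJ34 embryos, MTM11-2 was high for Kif14 10350329 (4.02, next 3.79), MTM13-4 for Kif24 (7.02, next 6.37) and MTM13-3 for Kif7 10564791 (7.18, next 6.78).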

How the results depend on the processing

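No kinesin row was called between the groups under any of the alternatives run. The number at an unadjusted p under 0.05 was 5, and 3 with array medians subtracted, 3 in the plain analysis of variance, 3 without sire A and 3 to 7 when 1 embryo was left out. The block correlation of the sire was -0.04, and the count remained 5 with it. The call of Kif3a in MTM14 was lost with array medians subtracted (0 calls) and with rows above the median mean (0 calls, since the fit then lacks Kif3a), and the count over the families was 0 to 1 when 1 embryo was left out. Between the families it was 0, and 0 to 1 when 1 embryo was left out. Of 6 calls in single PJ34 embryos 2 were made with the spread of controls and other PJ34 embryos, and 3 to 6 when 1 control was left out. The 2 control calls became 0 with rows above the median mean, since both rows lay below it. Subtracting array medians moved the median difference of all rows from -0.02 to -0.01. Of 23 named rows 5 turned sign under some alternative: Kif6 10445839 to 0.00075 with sire means, Kif5b to 0.045 without control D-1 (its range was -0.081 to 0.045 when 1 embryo was left out) and 0.077 without sire D, Kif14 10350297 to -0.017 without sire B, Kif16b to 0.031 without sire D and 0.074 without sire MTM11, and Kif26b 10352152 to 0.012 without sire MTM14. The group difference of 17 of 23 named rows moved by over 1.5 times without 1 embryo. The cause of these shifts was not tested. The values carry no detection call, so whether dim rows such as Kif14 10350329 lie above array background is not known here, and 10 embryos of 3 sires against 7 of 3 limit the precision.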
